A study of Drosophila melanogaster with 24 samples.

Results

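Genomic sites that carried both the coactivator SAGA and RNA polymerase II, abbreviated Pol II, were described from chromatin immunoprecipitation sequencing (ChIP-seq) of Drosophila melanogaster embryos. The sites were chosen by peak calls. A peak of the SAGA subunits Ada2b, Spt3 or Sgf11 was kept when it overlapped, by 1 bp or more, a peak of at least 1 other library of the same subunit, and the kept peaks of the 3 subunits were merged into 6040 sites. Of these, 1649 held kept peaks of all 3 subunits and are called canonical SAGA sites. The 1325 canonical sites that also held a peak in both Pol II libraries are the canonical sites with Pol II, and the other 324 are the remaining canonical sites. Over all 6040 merged sites, 65.8% held a peak in both Pol II libraries. Since Pol II peaks chose the sites, nothing is read from that share.

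SAGA is a large transcription coactivator that is built from modules. The histone acetyltransferase (HAT) module carries Gcn5, which acetylates histone H3, and Ada2b is the subunit that sets the HAT module of SAGA apart from that of the related ATAC complex. Spt3 belongs to the SPT module, which contacts the TATA-binding protein. Sgf11 and the ubiquitin protease Non-stop belong to the deubiquitinase (DUB) module, which removes ubiquitin from histone H2B. Pol II transcribes protein-coding genes, and at many fly promoters it pauses shortly after initiation. In the early fly embryo the zygotic genome becomes active on a large scale.

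A peak list was used from each of 14 ChIP libraries: Pol II and Non-stop had 2 libraries each, Spt3 and Sgf11 had 3 each and Ada2b had 4. All came from embryos of 1 to 3 h at stages 4 to 6, with no mutant or treated group. The 10 total chromatin libraries had no list of their own. The Pol II antibody 4H8 recognises the repeats of the C-terminal domain of the largest subunit, and the labels name phosphorylation of serine 5. Whole embryos were fixed, so a peak does not tell in which cells a protein was bound, and the labels do not say whether libraries came from separate embryo collections. The p-values below therefore measure the spread between libraries, which may be technical. The lists held between 1563 (Ada2b 1530_3) and 12073 (Non-stop 1924_2) peaks. The sequencing depth is unknown, and a site without a peak may hold binding below the limit of the caller. Peak strength was compared within a list, as the score percentile. This is the rank of a peak's score within its library, counted from the lowest, as a percentage of the library's peaks. Tied scores share their mean rank. The fold enrichment at the summit, a ratio of ChIP signal to the local background of the peak caller, was used beside the percentile.

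1 of the 10 SAGA libraries stood apart at these sites. Score percentiles of Spt3 1530_2 had a Spearman correlation of 0.48 with Spt3 1760_2 (1143 sites) and 0.52 with Spt3 1530_1 (924 sites), whereas Spt3 1530_1 and 1760_2 correlated at 0.83 (1100 sites). Within Ada2b the library pairs correlated at 0.72 to 0.91, and within Sgf11 at 0.90 to 0.98. These correlations run across sites of one genome and are descriptions, since the sites are not independent replicates and every pair of lists shares the underlying chromatin. The differences over the 10 SAGA libraries and the contrast of Ada2b with Spt3 are given with and without this library.

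The canonical sites with Pol II lay on all chromosome arms. On 3R there were 332 sites, on 2R 284, on 2L 254, on 3L 232, on X 154 and on the small chromosome 4 there were 36. In the same order these were 25.1, 21.4, 19.2, 17.5, 11.6 and 2.72% of the sites. Of all merged sites, 22.8, 19.1, 17.3, 18.1, 16.9 and 1.62% lay on these arms. The other 33 sites (2.49%) lay on heterochromatic, unplaced or mitochondrial sequence of the dm3 assembly, against 42 of 324 remaining canonical sites (13.0%). Over all merged sites this share was 4.09%. One of the 33 sites spanned 16248 bp of the mitochondrial genome and was the widest of all sites. Their part in the results was checked by keeping the 6 main arms alone. Neighbouring canonical sites with Pol II were separated by a median gap of 43.1 kb, with 175 of 1312 gaps under 5000 bp and 41 under 1000 bp.

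Canonical sites with Pol II were wider than the remaining canonical sites. Their median width was 854 bp (interquartile range 681 to 1215 bp), against 704.5 bp (576 to 822 bp) at the remaining sites. Of the sites with Pol II, 500 (37.7%) were over 1000 bp wide, against 41 (12.7%) of the remaining sites, and 16 against 0 were over 5000 bp. At 476 of the sites with Pol II (35.9%) at least 1 SAGA library had split its signal into 2 or more peaks, against 27 of the remaining sites (8.33%).

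A peak in every SAGA library was less frequent at canonical sites with Pol II than at the remaining canonical sites as a whole. Over all 1649 canonical sites, 38.5% held a peak in all 10 libraries. Among those with Pol II the share was 36.5% (484 of 1325, 95% Wilson interval 34.0 to 39.2%), and among the remaining sites it was 46.6% (151 of 324, 41.2 to 52.0%). The difference was -10.1 percentage points (95% Newcombe interval -16.1 to -4.11). The remaining sites were of both kinds, since the share was 57.5% (104 of 181) where there was no Pol II peak and 32.9% (47 of 143) where 1 Pol II library had a peak. The interval covers the counting of sites only. The rule itself requires at least 6 libraries, and 33 of the sites with Pol II had no more than that.

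At canonical sites with Pol II, Ada2b, Spt3 and Sgf11 gave weaker peaks than at the remaining canonical sites, in each of their 10 libraries. The median score percentile of Ada2b was 55.7, 52.2, 50.7 and 74.3 at sites with Pol II (libraries 1530_1, 1530_2, 1530_3 and 1760_2), against 83.4, 83.6, 80.8 and 90.4 at the remaining sites. Each Ada2b library at sites with Pol II was lower than every Ada2b library at the remaining sites. The median percentile of Spt3 was 53.5, 63.5 and 84.2 at sites with Pol II (1530_1, 1530_2 and 1760_2), against 71.0, 75.1 and 86.8 at the remaining sites. The difference was smallest in Spt3 1760_2. The median percentile of Sgf11 was 73.0, 78.4 and 75.2 at sites with Pol II (1377_1, 1377_2 and 1924_2), against 87.6, 89.2 and 84.0 at the remaining sites, so that for Sgf11 the libraries of the classes did not overlap.

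**Figure D1:**
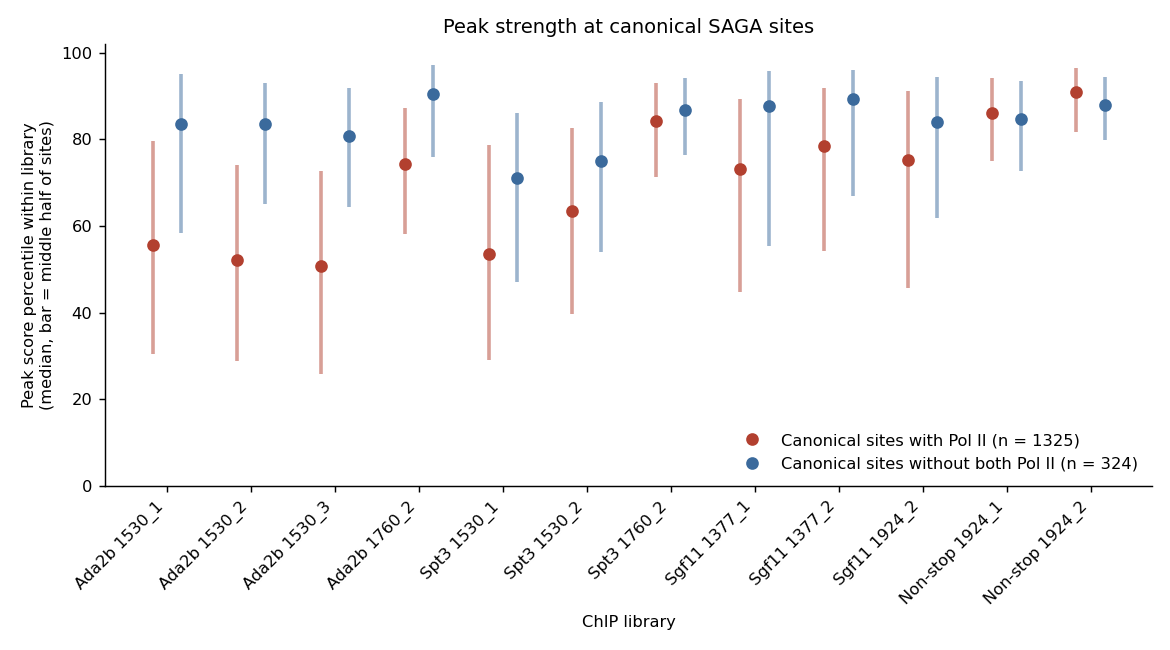
Median score percentile (vertical axis, percent of the peaks of a library) of the peaks at canonical sites with Pol II (red, left of each pair) and at the remaining canonical sites (blue) for each of 12 ChIP libraries. Bars span the interquartile range of sites. The red points lie under the blue points in all 10 libraries of Ada2b, Spt3 and Sgf11, and over them in both Non-stop libraries.

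Averaged over the 10 libraries, the median percentile was 66.1 ± 12.4 at sites with Pol II and 83.2 ± 6.16 at the remaining sites (SD, n = 10 libraries). The mean difference was -17.1 ± 9.69 percentile points, with lower values at sites with Pol II in 10 of 10 libraries (exact two-sided sign-flip permutation over libraries, p = 0.00195, the smallest that 10 libraries can give, Benjamini-Hochberg adjusted over 6 tests p = 0.00586). Without Spt3 1530_2 the difference was -16.6 points (exact permutation p = 0.00391). The test flips the 10 libraries independently, although they share numbers and sets (a set is the first part of a library name). With libraries of equal number averaged, it was -16.8 points over 7 numbers (exact sign-flip permutation p = 0.0156), and with libraries of a set averaged, it was -13.6 points, lower in 4 of 4 sets (exact permutation p = 0.125, the smallest that 4 sets can give). Both were added after the data were seen. By library set, the numbers that labels share between libraries, it was -23.7 in set 1530 (5 libraries), -9.32 in 1760 (2 libraries), -12.7 in 1377 (2 libraries) and -8.82 in 1924 (1 library).

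The fold enrichment differed in the same direction in each library. Median enrichment of Ada2b was 2.94-, 2.86-, 2.83- and 3.80-fold at sites with Pol II, against 4.65-, 4.58-, 4.40- and 5.82-fold at the remaining sites. For Sgf11 it was 6.69-, 10.6- and 9.80-fold at sites with Pol II, against 9.77-, 14.2- and 13.1-fold at the remaining sites. For Spt3 it was 2.68-, 2.70- and 4.38-fold at sites with Pol II, against 3.14-, 3.02- and 4.65-fold at the remaining sites. On the log2 scale the difference was -0.65 ± 0.03 for Ada2b (SD, n = 4), -0.46 ± 0.07 for Sgf11 (n = 3) and -0.16 ± 0.07 for Spt3 (n = 3). Over the 10 libraries it was -0.45 ± 0.22 (exact sign-flip permutation p = 0.00195, adjusted p = 0.00586), and without Spt3 1530_2 it was -0.46 (exact permutation p = 0.00391). With libraries of a set averaged it was -0.43 over 4 sets (exact permutation p = 0.125). With 4 or 3 libraries of a single factor the same test cannot go below p = 0.125 or p = 0.25.

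Measures that moved with this difference were site width, the number of libraries with a peak and the share of sites outside the main arms. Among sites of 1000 bp or less (825 with Pol II, 283 remaining), the percentile difference was -18.1 points. Among sites with a peak in all 10 libraries (484 with Pol II, 151 remaining), it was -12.0 points. On the main arms alone it was -18.6 points. The first and second of these restrictions were added after the data were seen.

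The remaining canonical sites were not of one kind. Of the 324, 181 had no Pol II peak, 131 had one in Pol II 1188_2 alone and 12 in Pol II 1632_1 alone. For Ada2b the sites with no Pol II peak were the strongest. In Ada2b 1530_1 the median enrichment was 2.94-fold at sites with both Pol II libraries, against 3.31-fold at sites with 1 Pol II library and 5.88-fold at sites with none. In Sgf11 1377_1, these values were 6.69-fold, 5.91-fold and 10.9-fold. In Sgf11 1377_2 they were 10.6-, 9.55- and 15.2-fold, and in Sgf11 1924_2 9.80-, 9.39- and 15.0-fold. In all 3 Sgf11 libraries the sites with 1 Pol II library were thus the lowest. The lower Sgf11 strength at sites with Pol II was therefore seen against the sites with no Pol II peak, and not against those with 1 Pol II library. The Spt3 libraries differed in their order. Spt3 1530_2 had 2.70-fold at sites with both, 2.77-fold at sites with 1 and 3.20-fold at sites with none, in the order of Ada2b 1530_1. In Spt3 1760_2 the sites with 1 Pol II library had the highest enrichment (5.12-fold), against 4.38-fold at sites with both and 4.45-fold at sites with none, and in Spt3 1530_1 they were also the highest (3.26-fold, against 2.68-fold and 3.05-fold). When canonical sites with Pol II were set against the 181 sites with no Pol II peak alone, the percentile difference was -19.9 points (exact permutation p = 0.00391, an alternative added after the data were seen), and Spt3 1760_2 was the 1 library that did not have the lower percentile at sites with Pol II (84.2, against 83.7).

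The difference between the subunits was tested for Ada2b and Spt3. The percentile difference between site classes was -26.3 ± 6.99 points for Ada2b (SD, n = 4) and -10.5 ± 7.54 points for Spt3 (n = 3). Ada2b minus Spt3 was -15.8 points, which did not pass the test (exact two-sided permutation of libraries, p = 0.0857, adjusted p = 0.12, smallest possible p = 0.0286). Without Spt3 1530_2 it was -15.5 points (exact permutation p = 0.2, smallest possible p = 0.0667). With Pol II defined by library 1188_2 alone, that is without Pol II 1632_1, the value was -21.0 points with exact permutation p = 0.0286. With only the peaks of each SAGA list at or above its median score, it was -12.1 points with the same p. These p-values are not adjusted. The other 20 of 22 alternatives did not pass the test or could not.

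How often a SAGA library had a peak at all did not differ detectably between the classes. Both classes needed peaks in at least 2 libraries of each subunit, so part of this share was fixed by the rule. A mean of 86.9 ± 17.5% of sites with Pol II had a peak in a given library, against 89.0 ± 12.1% of the remaining sites (SD, n = 10 libraries). The difference was -2.01 ± 8.52 points, lower in 5 libraries and higher in 5 (exact sign-flip permutation p = 0.477, adjusted p = 0.477). Without Spt3 1530_2 it was -1.98 points (exact permutation p = 0.266). Single libraries ranged widely. Ada2b 1530_3, the shortest list, had a peak at 51.0% of sites with Pol II and 67.9% of the remaining sites, whereas Spt3 1530_2 had one at 86.5% of sites with Pol II and 76.5% of the remaining sites.

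Among the canonical sites with Pol II themselves, the SAGA peaks that were called were lower where Pol II peaks were higher, with Spt3 1530_2 as the exception. Spearman correlations of score percentiles across sites were -0.25 to -0.18 between Pol II and Ada2b (8 library pairs) and -0.30 to -0.15 between Pol II and Sgf11 (6 pairs). Between Pol II and Spt3 they were -0.31 to -0.24 for Spt3 1530_1 and 1760_2, and 0.05 and 0.14 for Spt3 1530_2. These are weak relations over 676 to 1324 sites, given as descriptions. Among the 332 sites with the highest mean Pol II percentile (95.8 or above), the median Sgf11 enrichment was 4.46-, 5.03- and 5.54-fold, against 7.03-, 12.0- and 11.6-fold among the 332 sites with the lowest (81.5 or below). Ada2b 1530_1 had medians of 2.64-fold at the sites with the highest and 3.43-fold at those with the lowest Pol II. Spt3 1530_2 had 2.98-fold and 2.81-fold. These medians run over the sites with a peak, and the share of such sites differed. In Ada2b 1530_2 it was 74.4% at the sites with the highest and 51.5% at those with the lowest Pol II, in Ada2b 1530_3 65.1% and 45.8%, and in Spt3 1530_2 97.6% and 69.6%, whereas in Spt3 1530_1 it was 80.1% and 93.4%. The median site width was 1050.5 bp at the sites with the highest and 746 bp at those with the lowest Pol II.

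Non-stop, the ubiquitin protease of the DUB module, was not used to choose the sites. It had a peak in both libraries at 1316 of 1325 canonical sites with Pol II (99.3%, 95% Wilson interval 98.7 to 99.6%), against 299 of 324 remaining canonical sites (92.3%, 88.9 to 94.7%). Over all merged sites the share was 76.1%. The difference between the site classes was 7.04 percentage points (95% Newcombe interval 4.53 to 10.5). The 9 sites with Pol II that lacked a peak in 1 Non-stop library all had one in Non-stop 1924_2, which had a peak at 1325 of 1325 sites. This library, the longest list, also had a peak at 93.3% of all merged sites. Its share was 97.8% at merged sites that were not canonical but held both Pol II peaks.

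The size of this difference depended on which remaining sites were counted. Among canonical sites with no Pol II peak the share was 95.6% (173 of 181), 3.74 points below that at sites with Pol II (interval 1.49 to 7.81). Among canonical sites with 1 Pol II library it was 88.1% (126 of 143), 11.2 points below (interval 6.83 to 17.5). The share at sites with 1 Pol II library was therefore the lowest of the 3 canonical classes. Merged sites that were not canonical but held both Pol II peaks had Non-stop in both libraries at 78.5% (2080 of 2651). On the main arms alone, the difference between sites with Pol II and the remaining canonical sites was 4.98 points. Leaving out 1 library moved the difference to 3.09 points without Non-stop 1924_1, 3.78 without Pol II 1188_2, 3.97 without Spt3 1530_1 and 3.18 without Spt3 1530_2. Libraries of the same factor share sites, so the intervals cover counting of sites and not the spread between libraries, for which 2 Non-stop libraries give no test.

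**Figure D2:**
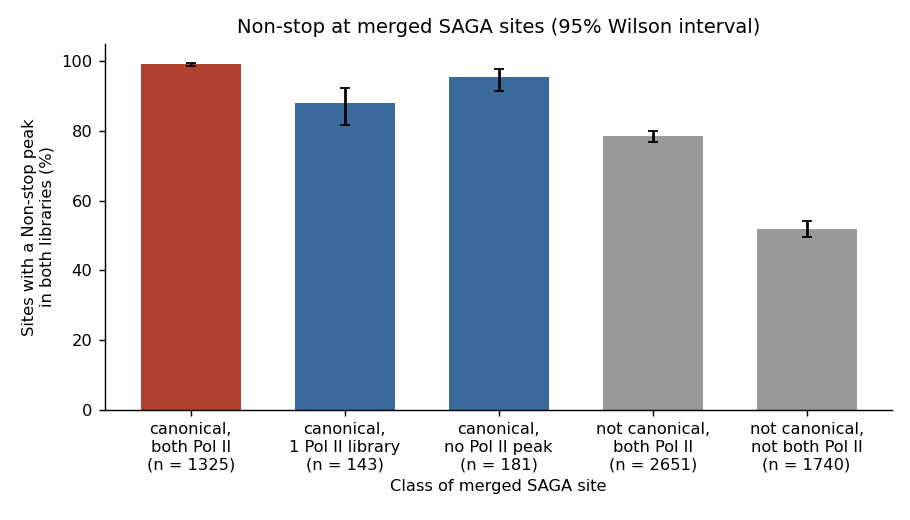
Share of merged SAGA sites with a Non-stop peak in both libraries (vertical axis, percent of sites), by class of site. Error bars are 95% Wilson intervals. Canonical sites with both Pol II peaks reach 99.3%, canonical sites with 1 or no Pol II library 88.1% and 95.6%, and sites that are not canonical 78.5% and 52.0%.

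Ada2b, Spt3 and Sgf11 had lower score percentiles at canonical sites with Pol II than at the remaining canonical sites as a whole. Non-stop did not. Its median score percentile was 86.0 and 91.0 at sites with Pol II (libraries 1924_1 and 1924_2), against 84.7 and 88.0 at the remaining canonical sites. The difference was 2.12 ± 1.22 points (SD, n = 2). At the sites with no Pol II peak alone, the median was 86.3 and 87.3. Against those, Non-stop 1924_1 was slightly lower at sites with Pol II, and Non-stop 1924_2 was higher. Median Non-stop enrichment was 6.43- and 8.35-fold at sites with Pol II, against 6.52- and 7.998-fold at the remaining sites. The percentile difference of Non-stop minus that of the 10 other libraries was 19.2 points (exact two-sided permutation of libraries, p = 0.0303), which missed the threshold after adjustment (p = 0.0606). This contrast was chosen after the data were seen. Against Sgf11, its partner in the DUB module, it was 13.5 points (exact permutation p = 0.1, the smallest that 2 against 3 libraries can give, adjusted p = 0.12). Median Non-stop enrichment was 5.91- and 7.16-fold at the 332 sites with the highest Pol II percentile. At the 332 sites with the lowest it was 6.88- and 9.41-fold. Across canonical sites with Pol II, Non-stop and Pol II percentiles had Spearman correlations of -0.24 to -0.06 (4 library pairs). Non-stop and Sgf11 percentiles correlated at 0.69 to 0.74 (6 library pairs). Both are descriptions. The Non-stop lists held 8558 and 12073 peaks, more than the 4972 to 6787 of Sgf11, and the part of list length in these percentiles was not tested.

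The Pol II peaks at these sites were high and broad. Their height and width are descriptions, since Pol II peaks chose the sites and a wider peak has more room to overlap a site. The 1348 Pol II peaks at canonical sites with Pol II had a median score percentile of 88.9 in Pol II 1188_2, against 27.7 for the 5346 Pol II peaks that overlapped no peak of any SAGA subunit library. In Pol II 1632_1 the median was 86.4 for 1503 peaks at these sites, against 27.2 for 4270 peaks apart from SAGA. The mean difference of both libraries was 60.2 points. The highest-scoring Pol II peak of a site had a median enrichment of 9.87-fold (range 1.37 to 12.9) in 1188_2 and 5.73-fold (1.58 to 9.93) in 1632_1. Its median width was 4007 bp (interquartile range 1875 to 7646) in 1188_2 and 1454 bp (675 to 4027) in 1632_1, whereas over all peaks of these lists the medians were 583 and 489 bp. The list medians count each peak once, whereas the site medians count a peak once for each site that it covers. Merged sites that were not canonical but held both Pol II peaks also had high and broad ones. The median percentile of the highest Pol II peak was 90.8 in 1188_2 and 90.1 in 1632_1 at canonical sites with Pol II, against 83.6 and 78.1 at those 2651 sites, where the median widths were 2875 and 697 bp. One Pol II peak contained the whole SAGA site at 717 sites (54.1%) in 1188_2 and at 344 sites (26.0%) in 1632_1. In 1188_2, 101 Pol II peaks covered 2 and 16 covered 3 of the sites.

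Within broad Pol II peaks, SAGA lay toward an edge, at canonical sites with Pol II and also at sites that were not canonical. The placement expected at random was not computed. At 946 sites the SAGA summit (the median position of the highest peak's summit over the SAGA libraries) fell inside a Pol II 1188_2 peak of 2000 bp or more. Its distance to the nearest end of that peak had a median of 788 bp, which was 16.0% of the peak's width. In Pol II 1632_1 the distance was 391 bp and 9.53% of the width (522 sites). At merged sites that were not canonical but held both Pol II peaks the SAGA summit lay at 18.7% of the width in 1188_2 (1579 sites) and 17.7% in 1632_1 (614 sites). In 1188_2, the summit was within 1000 bp of an end at 55.5% of the canonical and 52.1% of these other sites. In 1632_1 the shares were 73.0% and 55.5%. Gene orientation was not analysed here.

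The summits of the SAGA subunits coincided closely, and those of Pol II lay beside them. Between libraries of different SAGA subunits the median distance of summits at canonical sites with Pol II was 26 to 54 bp (33 library pairs), against 14.5 to 24.5 bp at the remaining canonical sites. From SAGA to Non-stop it was 18 to 42 bp (20 pairs), against 14 to 25 bp at the remaining sites. From SAGA to Pol II it was 143 to 207 bp (20 pairs), against 150 to 199 bp (10 pairs) at those remaining sites that had a Pol II peak, so that the ranges overlapped. The summits of both Pol II libraries lay a median of 26 bp apart and within 100 bp of each other at 80.2% of sites. From the middle of the site, the nearest Pol II summit had a median distance of 199 bp in 1188_2 and 208.5 bp in 1632_1, with a mean of 204 bp.

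The distances between the SAGA summit and the summit of the highest Pol II peak covered a continuous range, with unequal numbers of sites along it. Whether they form separate groups was not tested. In Pol II 1188_2, 100 sites had a distance under 25 bp, 40 sites one of 50 to 75 bp, and 162 sites one of 125 to 150 bp, the bin of 25 bp with the most sites. In Pol II 1632_1 the corresponding numbers were 92 and 37, and the bin with the most sites was 150 to 175 bp with 150 sites. Distances over 100 and up to 250 bp held 641 sites (48.4%) in 1188_2 and 650 (49.1%) in 1632_1. Distances over 1000 bp held 205 (15.5%) and 153 (11.5%) sites, nearly all with a Pol II peak of 2000 bp or more (203 of 205 and 146 of 153). That share follows largely from the rule, since the Pol II peak had to overlap the site. A distant summit then needs a wide peak or a wide site. For Non-stop, in contrast, 73.7% and 78.2% of summits lay within 50 bp of the SAGA summit.

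**Figure D3:**
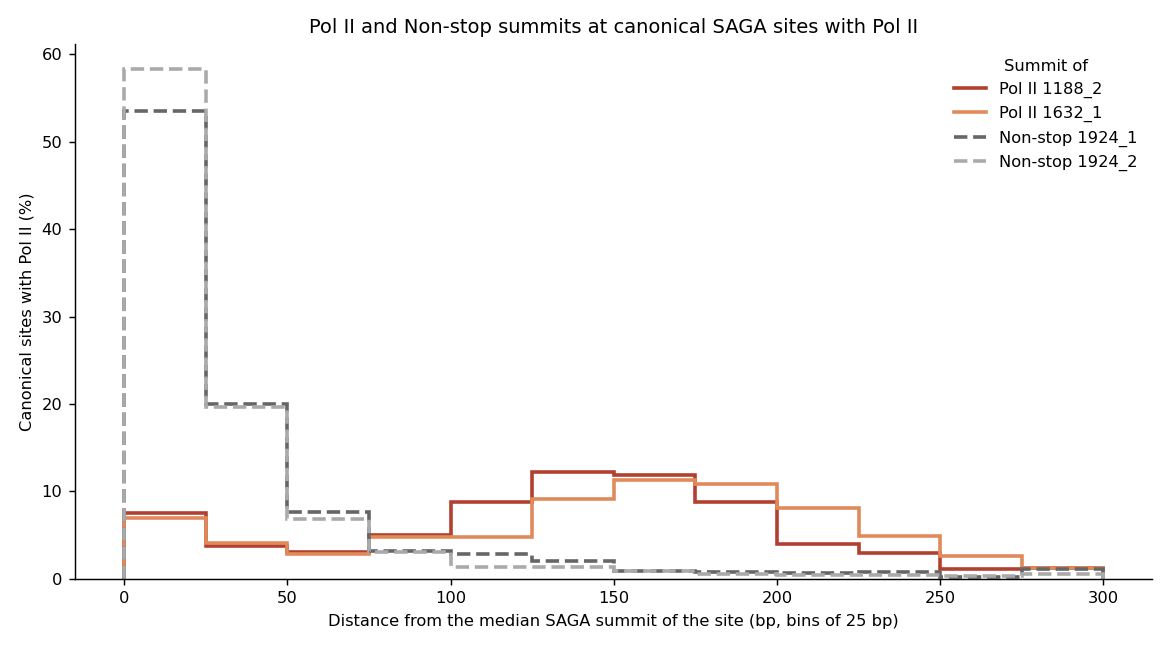
Distance from the SAGA summit to the summit of the highest Pol II peak (solid lines) and Non-stop peak (dashed lines) at canonical sites with Pol II, in bins of 25 bp up to 300 bp (horizontal axis), as a percentage of sites (vertical axis). Non-stop summits fall mostly under 50 bp, whereas Pol II summits have their most frequent distance between 125 and 175 bp. A smaller share of Pol II summits lies under 25 bp, with a local low at 50 to 75 bp.

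Sites with coinciding Pol II and SAGA summits had the strongest Pol II and the weakest Sgf11 peaks. These groups were formed from the observed distances, so their values are a description without a test. At 116 sites (8.75%) both Pol II libraries had their summit within 50 bp of the SAGA summit, at 528 sites (39.8%) both lay over 100 and up to 250 bp away, and at 112 sites (8.45%) both lay over 1000 bp away. The median Pol II percentile was 95.7 and 98.4 at the 116 sites, against 89.1 and 87.5 at the 528 sites. Sgf11 had median percentiles of 19.0, 32.6 and 28.0 at the 116 sites, against 79.9, 84.7 and 84.2 at the 528 sites. In fold enrichment, Sgf11 had medians of 2.58, 3.30 and 3.39 at the 116 sites, against 7.92, 12.5 and 12.5 at the 528 sites.

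The other SAGA subunits and Non-stop had smaller differences between these groups. Ada2b had median percentiles of 29.1, 38.2, 25.1 and 53.8 at the 116 sites, against 66.2, 54.0, 52.6 and 79.6 at the 528 sites. Spt3 1530_1 and 1760_2 had 32.8 and 65.5, against 62.0 and 89.0. Spt3 1530_2 had the opposite order, with 75.6 at the 116 sites against 62.9 at the 528 sites, and it had a peak at 100% of the 116 sites against 84.7% of the 528. Non-stop had 74.7 and 77.0 at the 116 sites, against 90.4 and 94.6 at the 528 sites, and was found in both libraries at 116 of the 116 and 525 of the 528 sites. A weak peak has a less certain summit, and the part of this in the grouping was not tested. Of the 116 sites, 113 lay on the main arms and 39 (33.6%) had a peak in all 10 SAGA libraries, against 212 (40.2%) of the 528 sites.

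**Figure D4:**
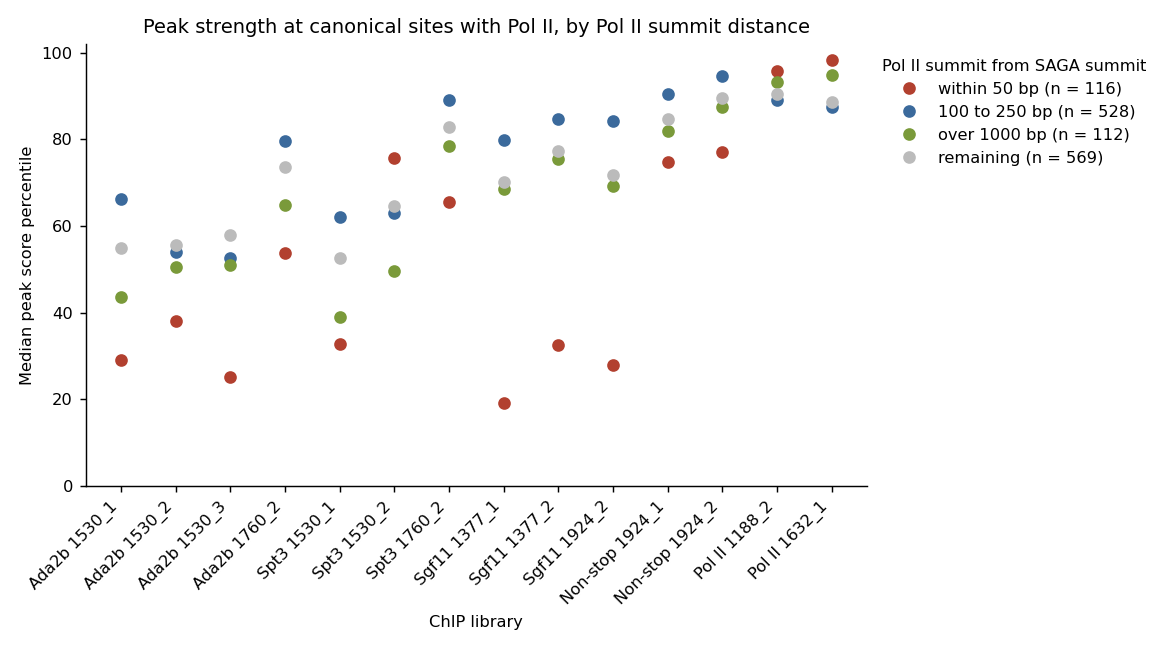
Median score percentile (vertical axis, percent of the peaks of a library) in each of 14 ChIP libraries, for canonical sites with Pol II grouped by the distance between the SAGA and Pol II summits in both Pol II libraries. Sites within 50 bp (red, 116 sites) are lowest in 11 of the 12 libraries of SAGA subunits, Sgf11 by the widest margin, and highest in Spt3 1530_2 and both Pol II libraries.

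Single sites showed this range. Coordinates are those of dm3, without gene names, as no annotation of that build was used here. The 5 sites with the highest mean SAGA percentile among those with a peak in all 10 libraries lay at 88900 to 90408 on chromosome 4, 12552502 to 12553698 on X, 12519997 to 12520931 on 2L, 3028366 to 3029375 on X and 12085941 to 12087130 on 3R. Their mean percentiles were 98.9 to 99.4. At the X site at 12552502, Ada2b was enriched 12.0-, 12.4-, 12.9- and 12.6-fold, Spt3 8.54-, 7.26- and 9.80-fold and Sgf11 16.7-, 21.4- and 19.8-fold. Pol II there was enriched 12.9- and 9.11-fold, and this site also ranked 3 by Pol II percentile (99.6). High SAGA and high Pol II were thus found together at this site, unlike the order over all sites. By contrast, the 2L site had Ada2b at 9.01-, 10.4-, 10.8- and 10.5-fold and Pol II at 3.11- and 2.90-fold, a Pol II percentile of 61.0. Its Pol II summits lay 30 and 12 bp from the SAGA summit, so close summits were also seen at a site with strong SAGA and modest Pol II.

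The sites with the highest Pol II percentile other than that X site had low SAGA enrichment. At 17959403 to 17959908 on 3R, Pol II was enriched 12.5- and 9.73-fold, and Pol II summits lay 28 and 3 bp from the SAGA summit. Ada2b had 2.27-, 2.26-, 2.87- and 3.24-fold there, Spt3 2.32-, 3.12- and 3.23-fold, and Sgf11 2.29-, 3.88- and 5.58-fold. At 16989082 to 16989797 on 2R, Pol II was enriched 12.7- and 8.86-fold with summits 27 and 45 bp away, Sgf11 had 2.88- and 2.28-fold in 2 libraries and no peak in 1377_1, and Spt3 had no peak in 1530_1. Both belong to the group with coinciding summits.

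At 3 sites with a peak in all 10 libraries the subunits differed most among themselves. At 17839180 to 17840489 on 3L, Sgf11 was enriched 9.51-, 12.7- and 12.6-fold and Ada2b 2.33-, 2.20-, 2.10- and 2.06-fold, with mean percentiles of 86.1 for Sgf11 and 17.9 for Ada2b. At 8756675 to 8758066 on 2R, mean percentiles were 95.3 for Sgf11 and 32.2 for Ada2b. At 1890683 to 1891516 on 3L, they were 90.1 for Sgf11, 81.8 for Ada2b and 28.0 for Spt3, whose enrichment was 1.93-, 1.93- and 3.58-fold. Sgf11 was the highest of the 3 subunits at each of these sites. Non-stop was enriched 6.89- and 9.21-fold at the first, 12.1- and 11.6-fold at the second and 12.0- and 12.8-fold at the third.

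The widest sites on the main arms spanned 9231 bp at 3365002 to 3374232 on 2R and 8636 bp at 3748448 to 3757083 on X. The 2R site was a single broad peak of 9024 bp in Spt3 1530_2 and 8222 bp in Spt3 1760_2, but 6 peaks in Sgf11 1377_1 and 5 in Sgf11 1924_2. Mean percentiles there were 90.1 for Spt3, 72.3 for Ada2b and 32.9 for Sgf11. The Pol II peaks covering it were 23159 and 12570 bp wide. At the other end, sites at 12678225 to 12678833 and 222991 to 223501 on 2L had the lowest SAGA percentiles (8.47 and 11.9) of the sites held by 6 libraries. SAGA enrichment there was 1.79- to 2.25-fold at the first and 1.98- to 2.42-fold at the second, while Pol II was enriched 8.68- and 6.03-fold at the first and 10.0- and 7.75-fold at the second. The second lay in Pol II peaks of 43248 and 42604 bp, the widest at any of the sites.

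**Figure D5:**
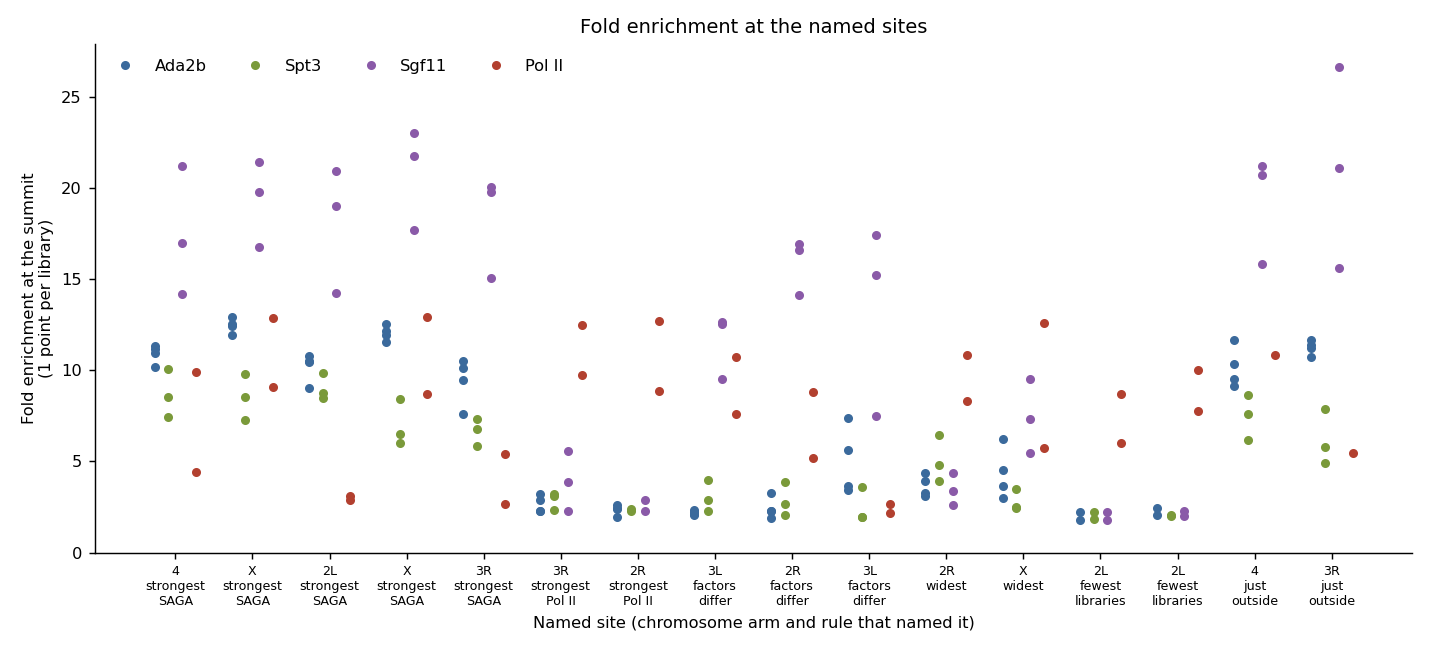
Fold enrichment at the peak summit (vertical axis) at 16 sites named by rule, 1 point per library with a peak, coloured by factor. The 14 sites to the left are canonical sites with Pol II, and the last 2 had a peak in 1 Pol II library alone. Sites with the strongest Pol II on 3R and 2R have SAGA values of 1.95- to 5.58-fold, whereas the strongest SAGA sites have Pol II values from 2.67- to 12.9-fold.

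The limit that chose the sites was a Pol II peak in the second library. Just inside it, the tenth of sites with the lowest Pol II significance (133 sites per library) had a median Pol II enrichment of 5.92-fold in 1188_2 and 2.20-fold in 1632_1. Just outside, the 131 canonical sites with a Pol II peak in 1188_2 alone had a median of 3.84-fold, and the 12 with one in 1632_1 alone had 1.92-fold. The 2 strongest SAGA sites just outside lay at 855387 to 856998 on chromosome 4 and 18181850 to 18182856 on 3R, both with a Pol II peak in 1188_2 alone (10.8- and 5.45-fold). Ada2b was enriched 10.3-, 9.52-, 11.7- and 9.15-fold at the first, which is within the range of the 5 strongest sites with Pol II in both libraries (7.58- to 12.9-fold). The number of sites with Pol II also rested on single libraries of Ada2b and Spt3. It was 857 without Ada2b 1530_1, 831 without Ada2b 1760_2 and 915 without Spt3 1760_2. Without any other single library it was 1102 or more.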

How the data were processed

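Per the labels and the study's methods, the authors sequenced single reads, aligned them to dm3 with Bowtie and called peaks per library with MACS2 at default settings (methods named for Ada2b, Spt3 and Sgf11). The submitters' processing notes list CASAVA 1.8.2. The control for peak calling is not given in the sources used here. Each deposited list gives a score per peak, which equals 10 times the −log10 q rounded down for 99.98% or more of the peaks of each list. The lowest deposited −log10 q of any list was 2.01. The deposited fold enrichment is a ratio to the MACS2 background at the summit. Summit positions were taken from the lists.

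Lists were used on all chromosomes as deposited, without further filtering. Overlaps were computed with NumPy 2.4.6 and pandas 2.3.3 in Python 3.11.15, tested on simulated lists and checked against bedtools. Figures used matplotlib 3.10.9. At a site each library was represented by its highest-scoring peak. Site classes were compared by the difference of medians per library, tested by exact sign flips or permutations over libraries, with Benjamini-Hochberg adjustment over 6 tests. Shares have 95% Wilson or Newcombe intervals, which cover counting error only. Alternatives changed the overlap, the number of libraries required, the peaks or chromosomes used, the Pol II condition, the average and each library in turn. The sites, lists and tests were chosen with earlier results of these data known.

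In the labels, 3 numbers (1530_1, 1530_2 and 1760_2) occur for both Ada2b and Spt3. A single total chromatin library carries each of these numbers. The number 1924_2 is likewise shared by Sgf11, Non-stop and a single total chromatin library. Ada2b and Spt3 libraries of equal number, and these Sgf11 and Non-stop libraries, may thus share chromatin. Deviations of site percentiles from the factor mean correlated at 0.16, 0.38 and 0.26 for equal numbers across canonical sites with Pol II, and between -0.37 and 0.30 for unequal numbers. All 3 equal-number pairs were over 0.1, the criterion used for pairing. The unequal pair of Ada2b 1530_3 with Spt3 1530_2 reached 0.30, above the equal-number values of 0.16 and 0.26. The criterion therefore cannot decide whether the numbers mark a pairing. The tests treated libraries as independent, and pairs or sets entered as alternatives. The contrasts of Non-stop with Sgf11 and with the 10 SAGA libraries had no paired alternative.

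Named sites, on the main arms, were the 5 with the highest mean SAGA percentile and the 3 with the largest difference between factors among sites with a peak in all 10 SAGA libraries, the 3 with the highest Pol II percentile, the 2 widest, the 2 with the lowest SAGA percentile among those held by the fewest libraries, and the 2 strongest canonical sites with a peak in 1 Pol II library. One site met 2 of these criteria.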

Additional observations from a re-analysis of the deposited data

Results flagged for a closer look

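The score percentile of Non-stop at canonical sites with Pol II was higher than at the remaining canonical sites as a whole, in both libraries. That of the other subunits was lower in every library. Against the sites with no Pol II peak alone, Non-stop was higher in 1924_2 (91.0 against 87.3) but not in 1924_1 (86.0 against 86.3). On the log2 fold scale the Non-stop difference was -0.02 in 1924_1 and 0.06 in 1924_2. The score percentile difference of Non-stop exceeded that of Ada2b by 28.5 points, that of Spt3 by 12.7 points and that of Sgf11 by 13.5 points. The contrast with Sgf11 was tested by exact permutation of 2 against 3 libraries (p = 0.1, the smallest possible), and those with Ada2b and Spt3 alone were not tested. Median Non-stop peaks were also wider at sites with Pol II, at 551 and 685 bp, against 367 and 396.5 bp at the remaining sites. The part of peak width in the percentile was not tested.

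Among the 4 Ada2b libraries, the median log2 fold enrichment at canonical sites with Pol II was 1.93 in Ada2b 1760_2, far above the 1.50 to 1.55 of the 3 libraries of set 1530. Ada2b 1760_2 was the only Ada2b library of set 1760, so the library and its set cannot be told apart. Several measures were examined. The difference between site classes in this library (-0.61 on the log2 scale) was near those of the others (-0.68 to -0.64).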

How the results depend on the processing

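The lower SAGA strength at canonical sites with Pol II kept its direction under every alternative, and passed the test under each that could reach the threshold. It could not with the libraries of a set averaged (-13.6 points and -0.43 on the log2 scale, exact permutation p = 0.125 for both). Alternatives had percentile differences from -23.7 to -5.80 points and log2 fold differences from -0.59 to -0.25. The detection difference stayed without a call and was 0.55 points with the libraries of a set averaged. The number of sites fell to 835 with 3 of 4 Ada2b libraries, 476 with a peak in every library of each factor, 484 with the higher-scoring peaks of each list (median score or more) and 422 with the same number of peaks (1563) in each SAGA list, and it was 831 to 1456 when single libraries were left out. The Non-stop share difference was 4.50 points with an overlap of 50% of the shorter interval and 4.98 on the main arms alone. It was 1.78 with a peak in every library, 3.84 with the higher-scoring peaks and 2.83 with equal numbers of peaks. It was 3.08 with a Pol II peak over the middle of the site and 2.65 with Pol II in at least 1 library. When leaving out libraries it was 3.09 to 7.64. The Pol II percentile difference was 62.0 with 3 of 4 Ada2b libraries, 62.6 with every library, 57.1 with the higher-scoring peaks and 58.3 with equal numbers, and 58.5 to 62.2 when leaving out libraries. The Pol II offset was 179.8 bp with 50% overlap, 195 bp with equal numbers of peaks and 159 bp with Pol II over the middle, and 189.8 to 209 bp when leaving out libraries. The cause of these shifts was not tested.

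The Ada2b minus Spt3 contrast passed the test, before adjustment, in 2 of 22 alternatives. These were the higher-scoring peaks (-12.1 points, exact permutation p = 0.0286) and the setting without Pol II 1632_1. The contrast ranged from -22.3 to -14.3 points when leaving out libraries. Without an Ada2b or an Spt3 library the smallest possible p was 0.1 or 0.0667, so these alternatives could not pass. With the replicate block, which used the pairing of library numbers, it was -14.5 points over 3 pairs (exact permutation p = 0.25, the smallest that 3 pairs can give). With the same block over 7 library numbers, the score percentile difference was -16.8 and the log2 fold difference -0.46 (exact permutation p = 0.0156 for both), and the block changed no call. The Non-stop minus SAGA contrast, before adjustment, lost its call with 50% overlap (13.4 points, p = 0.0909 by exact permutation) and on the main arms (20.3 points, exact permutation p = 0.0606). It ranged from 16.4 to 21.8 points when leaving out libraries, and lost its call without Pol II 1632_1, Sgf11 1377_1, Sgf11 1377_2 or Spt3 1530_1. Without either Non-stop library it was 20.1 and 18.4 points, and 1 library against 10 cannot give a p under 0.0909. The depth of the libraries is unknown, so sites below the limit of the caller could not be compared.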
